A study of Mus musculus with 10 samples.

Results

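The genes described are 10 members of the ATF4 stress response: the transcription factors Atf4, Atf5 and Ddit3, the pseudokinase Trib3, the metabolic enzymes Asns, Aldh18a1, Pycr1 and Chac1, and the growth signalling inhibitors Ddit4 and Sesn2. They were chosen by name, with earlier results of these data known, and are 10 of 24062 genes in the count tables. All 10 passed the filter on low counts and were tested. RNA came from adult kidneys of male Ehhadh knockout mice (KO, 4 libraries) and wild-type mice (WT, 4 libraries), all labelled as the C57BL/6N strain. Single wild-type kidneys of the strains DBA_2J and 129S2_SvPasCrl are set beside them, without a replicate. Ehhadh encodes a bifunctional enzyme of peroxisomal fatty acid β-oxidation. How the Ehhadh allele was made, and the age of the animals beyond adult, are not given in the sources used here. Each library is whole kidney of 1 animal, as far as the labels say, so fewer cells of a type and less RNA per cell cannot be told apart.

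In the integrated stress response, kinases that sense amino acid shortage, unfolded protein, haem shortage or double-stranded RNA phosphorylate the translation factor eIF2α. General protein synthesis then slows, while the mRNA of Atf4 is translated more, so ATF4 protein is set largely at translation and not by the amount of its mRNA. ATF4 binds composite C/EBP-ATF response elements in genes for amino acid synthesis, amino acid uptake and tRNA charging, and also in Ddit3, Atf5 and Trib3, which shape or end the response.

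In edgeR's quasi-likelihood test, 4 of the 10 genes were higher in KO kidneys at an adjusted p under 0.05, and none was lower. The 4 were Asns, Trib3, Aldh18a1 and Atf5. Of all 15547 genes tested, 6.32% were called higher and 4.68% lower in KO. With no adjustment, 5 of the 10 were higher with a p under 0.05, the fifth being Chac1, and 0 were lower. The share of all genes at that unadjusted threshold was not counted here. DESeq2 and limma also called 4 higher and 0 lower. Of all genes, DESeq2 called 8.08% higher and 6.6% lower, and limma 7.02% higher and 5.23% lower. In 4 of the 10 genes every KO library lay above every WT library, which was so for 9.77% of all genes tested. In no gene was every KO library below every WT library, which was so for 7.95% of all genes. The median log2 fold change of the 10 was 0.79, against −0.01 over all genes tested. Atf4 itself, Ddit3, Ddit4, Chac1, Sesn2 and Pycr1 did not pass the test.

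**Figure D1:**
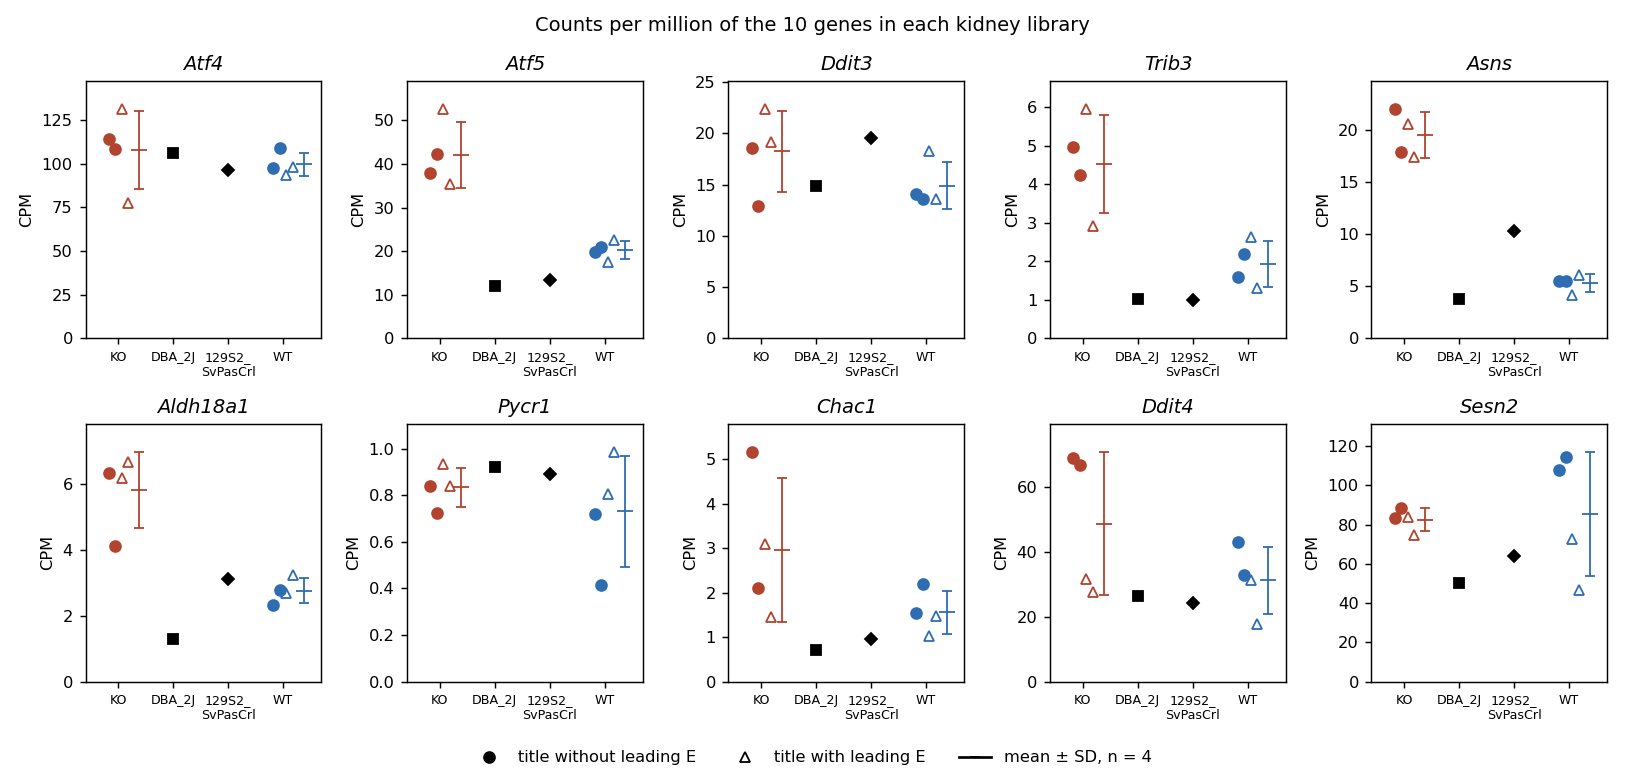
Counts of each gene per M of the library total (CPM) in every kidney library, with circles for titles without a leading E, triangles for titles with one, and bars for the mean ± SD of 4 libraries. KO and WT values are scaled over the 8 C57BL/6N libraries and the single DBA_2J and 129S2_SvPasCrl values over all 10; the KO points of Asns, Atf5, Trib3 and Aldh18a1 all lie above the WT points.

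Depth was 41.5 to 52.3 M gene counts in KO libraries and 19.8 to 36.0 M in WT libraries, and 57.3 M in the DBA_2J and 51.2 M in the 129S2_SvPasCrl library. Asns, Atf5, Trib3 and Aldh18a1 were also called higher after every library was thinned to the smallest total of the 8, as were 5.93% of all genes. Ehhadh itself had 176 to 331 CPM in KO libraries and 2100 to 3439 CPM in WT libraries, lower in every KO library. Sample titles came in a form with a leading E and a form without, each held by 2 KO and 2 WT animals (KO and WT libraries 3 and 4 with it, 1 and 2 without it). What the form stands for is not in the labels. Apart from the E, each title starts with a number that no KO animal shared with a WT animal. What that number stands for is not in the labels either, and it cannot be told apart from genotype. Nothing in the labels says more of how the animals were paired or bred. In the main fit, p-values set the difference between KO and WT against the variation among these animals, with both title forms pooled.

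Asns encodes asparagine synthetase, which makes asparagine from aspartate and glutamine, and is a classic target of ATF4. It lies at chr6:7675171-7693182 on the minus strand (mm10). KO libraries 1 to 4 held 22.0, 17.9, 20.6 and 17.4 CPM of Asns, against 5.50, 5.48, 4.16 and 6.11 CPM in WT libraries 1 to 4. The lowest KO library was well above the highest WT library, and no other of the 10 genes had as large a fold change. Asns averaged 19.5 ± 2.19 CPM in KO kidneys and 5.31 ± 0.82 CPM in WT kidneys (SD, n = 4 each). The log2 fold change was 1.88 (SE 0.13, edgeR adjusted p = 2.32e-05), or 3.68-fold with a 95% interval of 3.02 to 4.48. Among animals with a leading E in the title it was 1.89, and among those without 1.86, and both passed the test. It was the 1 gene of the 10 called among animals with the leading E alone, a fit of 2 against 2 in which 0.583% of all genes were called higher.

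The core of the composite element, TGATGNAA, was searched for on both strands of RefSeq promoter windows (GRCm38.p6) that run from 250 bases before to 50 bases after a gene's start. It was found in 3.97% of 32851 such windows, and in windows of 4 of the 10 genes: Asns, Trib3, Chac1 and Pycr1. The 4 stretches are shown because each matches this pattern, through which ATF4 is known to act on Asns, and because their genes did not all pass the test. Their letters are not all the same: in the motif's orientation Asns reads TGATGAAA, Trib3 TGATGTAA, and Chac1 and Pycr1 TGATGCAA. They are written on the strand of the gene, with the match in capitals.
Asns, chr6:7693210-7693252, minus strand: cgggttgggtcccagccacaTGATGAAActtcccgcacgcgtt
Trib3, chr2:152344028-152344057, minus strand: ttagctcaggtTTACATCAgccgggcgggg
Chac1, chr2:119351029-119351076, plus strand: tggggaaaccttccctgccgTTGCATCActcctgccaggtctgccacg
Pycr1, chr11:120643824-120643871, minus strand: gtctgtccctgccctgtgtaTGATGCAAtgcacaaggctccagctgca
The matches in Asns and Pycr1 read along the gene's strand and end 16 and 96 bases before the RefSeq start. That start is base 7693209 of chr6 for Asns and base 120643748 of chr11 for Pycr1. Both lie upstream of the gene coordinates given elsewhere here from the count tables, which reach 7693182 and 120643670. Those in Chac1 and Trib3 read on the opposite strand, the Chac1 match ending 186 bases before the start and the Trib3 match lying 15 to 22 bases into the transcript. Of these genes, Asns and Trib3 were called higher in KO, and Chac1 and Pycr1 were not. The full cAMP response element TGACGTCA (1.79% of all windows) and the endoplasmic reticulum stress element (0.119%) were in none of the 11 windows of the 10 genes. A match describes letters only, and letters missing from these windows say nothing of binding elsewhere.

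Proline synthesis from glutamate begins with the enzyme encoded by Aldh18a1, pyrroline-5-carboxylate synthase, and ends with pyrroline-5-carboxylate reductases such as that of Pycr1. Aldh18a1 (chr19:40550257-40588463, minus strand) had 6.32, 4.10, 6.16 and 6.65 CPM in KO libraries 1 to 4, against 2.31, 2.77, 2.69 and 3.24 CPM in WT libraries 1 to 4. All KO values were above all WT values, with KO library 2 nearest to WT. Its log2 fold change was 1.07 (SE 0.18, edgeR adjusted p = 0.00359), or 2.10-fold. Pycr1 (chr11:120635712-120643670, minus strand) was near 1 CPM, with 0.837, 0.724, 0.933 and 0.839 CPM in KO libraries and 0.720, 0.414, 0.804 and 0.986 CPM in WT libraries. These are 30 to 44 reads per KO library and 13 to 31 per WT library, and the groups overlapped. Its log2 fold change of 0.19 had a 95% interval of −0.47 to 0.84 (edgeR adjusted p = 0.748), wide enough to hold no difference as well as most of the size seen for Aldh18a1.

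Among the transcription factors, Atf5 differed and Atf4 and Ddit3 did not pass. Atf5, a bZIP factor related to ATF4 and itself under translational control, lies at chr7:44812256-44816658 on the minus strand. It had 37.9, 42.2, 52.7 and 35.4 CPM in KO libraries 1 to 4, against 19.8, 21.0, 17.5 and 22.5 CPM in WT libraries 1 to 4. Every KO library was above every WT library, and KO library 3 was the highest. This gave a log2 fold change of 1.06 (SE 0.12, edgeR adjusted p = 0.000444), or 2.08-fold. Atf5 shares 64 exon bases (3.21% of its length) with Nup62 and 82 (4.11%) with Nup62-il4i1, both on the opposite strand, and reads in shared bases were counted for each gene without regard to strand. Nup62-il4i1 averaged 8.57 ± 1.90 CPM in KO kidneys and 5.47 ± 0.331 CPM in WT kidneys (SD of 4 libraries each), a log2 fold change of 0.65 that was also called (edgeR adjusted p = 0.0235). Nup62 averaged 27.4 CPM in KO kidneys and 24.1 CPM in WT, and did not pass (log2 fold change 0.18, edgeR adjusted p = 0.124). The part of shared reads in the Atf5 difference was not tested.

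Atf4 (chr15:80255184-80257545, plus strand) was the most abundant of the 10 genes. It had 114, 109, 131 and 77.5 CPM in KO libraries 1 to 4, against 97.8, 109, 93.4 and 98.2 CPM in WT libraries 1 to 4. KO libraries held both the highest and the lowest value, with WT between. Its log2 fold change of 0.12 had a 95% interval of −0.17 to 0.40 (edgeR adjusted p = 0.633). That interval does not reach the fold changes of Atf5 or Asns. Without KO replicate 4 the log2 fold change was 0.25, and without KO replicate 3 it was 0.01, and neither passed.

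Ddit3 encodes CHOP, a bZIP factor that accompanies prolonged stress and cell death (chr10:127290793-127296288, plus strand). It had 18.6, 12.9, 22.4 and 19.2 CPM in KO libraries 1 to 4, against 14.1, 13.6, 18.3 and 13.6 CPM in WT libraries 1 to 4. KO library 2 was the lowest of the 8, and WT library 3 lay among the KO values. The log2 fold change was 0.29 with a 95% interval of −0.05 to 0.64 (edgeR adjusted p = 0.271). Ddit3 shares 68 exon bases (7.81% of its length) with Mars on the opposite strand. Mars, which encodes methionyl-tRNA synthetase, averaged 70.9 CPM in KO kidneys and 64.2 CPM in WT (log2 fold change 0.14, edgeR adjusted p = 0.180).

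Trib3 and Chac1 are usually read as markers of a strong response. Trib3 encodes a pseudokinase that binds ATF4 and CHOP and restrains them (chr2:152337425-152344060, minus strand). It had 4.96, 4.25, 5.96 and 2.92 CPM in KO libraries 1 to 4, against 1.59, 2.20, 2.63 and 1.30 CPM in WT libraries 1 to 4. KO library 4 stood just above WT library 3, and the other KO libraries stood clear of WT. The log2 fold change was 1.21 (SE 0.26, edgeR adjusted p = 0.0152), or 2.31-fold, with a 95% interval of 1.55 to 3.46. The call held in each fit that left out 1 library (adjusted p = 0.00512 to 0.0454). Chac1 encodes an enzyme that degrades glutathione in the cytosol (chr2:119351242-119354327, plus strand). It had 5.16, 2.10, 3.10 and 1.45 CPM in KO libraries 1 to 4, against 1.54, 2.20, 1.03 and 1.46 CPM in WT libraries 1 to 4. KO libraries 1 and 3 were above all WT libraries, and KO libraries 2 and 4 lay within the WT range. Its log2 fold change of 0.93 (SE 0.38) had a 95% interval of 0.10 to 1.76 and an unadjusted p of 0.0317, and it did not pass after adjustment in edgeR (adjusted p = 0.145). Without KO replicate 1 it was 0.51 (edgeR adjusted p = 0.388), and without KO replicate 4 it was 1.16 (edgeR adjusted p = 0.0504).

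Ddit4 and Sesn2 encode inhibitors of the growth kinase complex TORC1, REDD1 and sestrin 2, the second of which also senses leucine. Ddit4 (chr10:59949675-59951770, minus strand) had 69.1, 66.9, 31.6 and 27.7 CPM in KO libraries 1 to 4, against 43.0, 32.8, 31.3 and 17.9 CPM in WT libraries 1 to 4. KO libraries 1 and 2 were above all WT libraries, and KO libraries 3 and 4 lay within the WT range. Over the 8 libraries the log2 fold change was 0.65 (SE 0.32, edgeR adjusted p = 0.226). In the animals without a leading E in the title, Ddit4 averaged 68.0 CPM in KO kidneys and 37.9 CPM in WT, and the log2 fold change of 0.85 passed (edgeR adjusted p = 0.00039). In those with a leading E it averaged 29.7 CPM in KO kidneys and 24.6 CPM in WT, a log2 fold change of 0.27 (edgeR adjusted p = 0.642). The difference between these values did not pass (−0.58 on the log2 scale, SE 0.30, edgeR adjusted p = 0.770).

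Sesn2 (chr4:132492807-132510456, minus strand) had 83.3, 88.5, 83.7 and 74.6 CPM in KO libraries 1 to 4, against 108, 114, 72.5 and 46.7 CPM in WT libraries 1 to 4. The 4 KO libraries were close to each other, while WT libraries 1 and 2 lay above them and WT libraries 3 and 4 below. The log2 fold change over the 8 libraries was −0.05 (SE 0.22, edgeR adjusted p = 0.922). In the animals without a leading E it was −0.38 (SE 0.07, edgeR adjusted p = 0.00545), with means of 85.9 CPM in KO kidneys and 111 CPM in WT. In those with a leading E it was 0.41 (SE 0.20, edgeR adjusted p = 0.370), with means of 79.1 CPM in KO kidneys and 59.6 CPM in WT. The difference between the title forms was 0.78 (SE 0.23, unadjusted p = 0.00751), and it did not pass over all genes (edgeR adjusted p = 0.656). No gene passed for that difference in edgeR, and 1004 had an unadjusted p under 0.05. In the fits of each title form alone, the calls higher in KO took 5.95% of genes without the leading E and 0.583% with it, and those lower 5.14% and 0.323%.

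**Figure D2:**
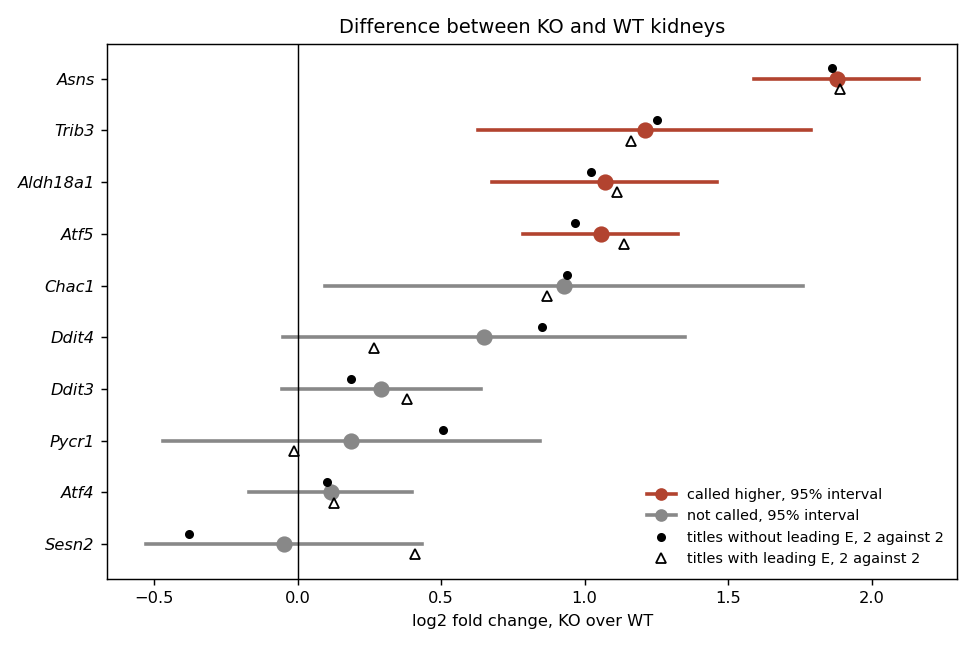
Log2 fold change of each gene, KO over WT, with its 95% interval over 4 against 4 libraries (large points) and the value within each title form, 2 against 2 (small points and triangles). Intervals of Asns, Trib3, Aldh18a1, Atf5 and Chac1 lie above 0, the first 4 of these were called after adjustment, and the title forms lie on opposite sides of 0 for Sesn2 and Pycr1.

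The 10 genes did not order the KO animals alike. KO library 3 was the highest KO library for 5 genes (Atf4, Atf5, Ddit3, Trib3 and Pycr1), and KO library 1 for 3 (Asns, Ddit4 and Chac1). KO library 4 was the lowest for 7 genes, Atf4, Atf5, Asns, Ddit4, Trib3, Chac1 and Sesn2, yet the highest for Aldh18a1. The KO values of Ddit4 and Chac1 were spread most, with coefficients of variation of 45.4% and 54.95% (n = 4), against 11.3% for Asns and 7.05% for Sesn2.

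To compare levels between genes, counts were divided by exon length and expressed as transcripts per M (TPM). Atf4 was the highest in both genotypes, at 124 ± 24.8 TPM in KO kidneys and 111 ± 6.69 TPM in WT kidneys (SD of 4 libraries each). Sesn2 came next, at 62.0 TPM in KO kidneys and 61.8 TPM in WT, and then Ddit4, at 57.5 TPM in KO kidneys and 35.7 TPM in WT. Atf5 averaged 42.1 TPM in KO kidneys and 19.5 TPM in WT, and Ddit3 41.9 TPM in KO kidneys and 32.9 TPM in WT. In KO kidneys the ranges of Sesn2, Ddit4, Atf5 and Ddit3 overlapped from each to the next, so their order there is not beyond their spread. In WT kidneys Ddit3 and Atf5 stood apart, with Ddit3 higher in 4 of 4 libraries. Asns averaged 20.1 TPM in KO kidneys and 5.30 TPM in WT, below the regulators and above the remaining genes with no overlap of ranges in either genotype. Trib3 (4.39 TPM in KO, 1.81 TPM in WT), Chac1 (3.73 TPM in KO, 1.91 TPM in WT) and Aldh18a1 (3.29 TPM in KO, 1.503 TPM in WT) overlapped each other, and Pycr1 was the lowest at 0.571 TPM in KO kidneys and 0.483 TPM in WT. Set against Atf4 in the same library, Asns stood at a ratio of 0.166 ± 0.0277 in KO and 0.0478 ± 0.00683 in WT (SD of TPM ratios, n = 4 each). The ratio of Atf5 to Atf4 was 0.343 ± 0.0441 in KO and 0.176 ± 0.0163 in WT, and neither ratio overlapped between genotypes.

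**Figure D3:**
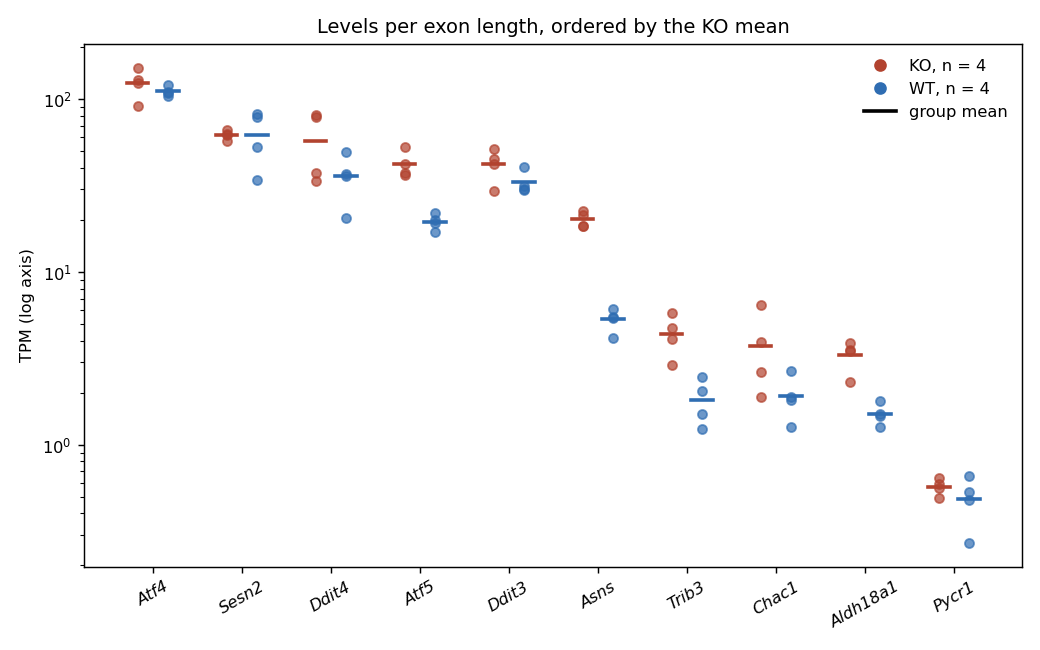
TPM of the 10 genes on a log axis, KO points left of WT points, with bars at the mean of 4 libraries and genes ordered by the KO mean. Atf4 lies highest and Pycr1 lowest in both genotypes, and the KO and WT points of Asns are the farthest apart.

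Other genes of the response and of neighbouring programmes were taken as 15 lists with 138 tested genes. Of these, 24 (17.4%) were called higher in KO and 8 (5.80%) lower, beside 6.32% and 4.68% of all genes tested, and their median log2 fold change was 0.07, against −0.01 over all genes. Upstream, 1 of 11 tested genes of eIF2α signalling rose: Eif2ak3, which encodes the kinase PERK that senses unfolded protein, with a log2 fold change of 0.29 (edgeR adjusted p = 0.0196; 0.061 without WT replicate 3). Among 11 bZIP partners and related factors, Atf3 rose and Cebpa fell. Atf3, a stress-induced factor and ATF4 target, averaged 8.77 ± 4.29 CPM in KO kidneys and 1.58 ± 0.606 CPM in WT kidneys (SD of 4 libraries each; log2 fold change 2.46, edgeR adjusted p = 0.00263). Cebpa, a factor of differentiated metabolic cells, averaged 35.8 CPM in KO kidneys and 47.2 CPM in WT (log2 fold change −0.40, edgeR adjusted p = 0.0105).

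Of 7 enzymes of serine and one-carbon metabolism, 3 rose and 1 fell. The mitochondrial folate enzymes Mthfd2 (log2 fold change 1.58, edgeR adjusted p = 0.000247) and Mthfd1l (log2 fold change 1.22, edgeR adjusted p = 0.000577) rose, as did Phgdh, the first enzyme of serine synthesis (log2 fold change 1.01, edgeR adjusted p = 0.000323). Mthfd2 averaged 9.36 ± 1.76 CPM in KO kidneys and 3.14 ± 0.397 CPM in WT kidneys (SD of 4 libraries each). The fourth, Shmt2, makes glycine from serine in mitochondria, and was lower by a small margin (log2 fold change −0.25, edgeR adjusted p = 0.0204). Its call was lost in 4 of the 8 fits that left out 1 library, those leaving out KO replicate 1 or 2 or WT replicate 3 or 4 (adjusted p = 0.0510 to 0.0665). Shmt2 shares 34 exon bases with Ndufa4l2.

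For amino acid uptake and tRNA charging, 3 of 9 transporters and 5 of 12 cytosolic tRNA synthetases rose, and none of either fell in edgeR, DESeq2 or limma. With no adjustment, 1 transporter and 0 synthetases were lower with a p under 0.05. Slc3a2, the heavy chain shared by several amino acid exchangers, averaged 308 ± 38.6 CPM in KO kidneys and 203 ± 10.9 CPM in WT kidneys (SD of 4 libraries each; log2 fold change 0.60, edgeR adjusted p = 0.00174). Slc7a11, its partner in cystine import, had a log2 fold change of 0.77 (edgeR adjusted p = 0.0214), a call that went away when KO replicate 1 or 2 or WT replicate 2 was left out (adjusted p = 0.0513 to 0.0655). The glycine transporter gene Slc6a9 had 0.29 (edgeR adjusted p = 0.0483), a call kept only without KO replicate 2 or 4 (adjusted p = 0.0664 to 0.113 in the other fits). Slc6a9 shares 46 exon bases with Ccdc24. The synthetase changes were small: log2 fold changes were 0.38 for Iars, 0.33 for Lars, 0.32 for Sars and 0.22 for Nars, which charge tRNA with isoleucine, leucine, serine and asparagine. The Nars call (edgeR adjusted p = 0.0213) went away when KO replicate 2 or WT replicate 3 was left out (adjusted p = 0.0642 to 0.0680). The fifth, Aars, for alanine, had 0.20 (edgeR adjusted p = 0.0494), a call kept only without KO replicate 4 (adjusted p = 0.0656 to 0.137 in the other fits).

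Asparagine and proline turnover moved in both directions, with 1 of 12 genes higher and 2 lower. Asrgl1, an asparaginase-like hydrolase, averaged 12.3 ± 0.81 CPM in KO kidneys and 6.75 ± 0.49 CPM in WT kidneys (SD of 4 libraries each; log2 fold change 0.86, edgeR adjusted p = 0.000379). Aspg, which encodes another asparaginase, fell to 103 ± 20.8 CPM in KO, against 170 ± 18.5 CPM in WT (log2 fold change −0.73, edgeR adjusted p = 0.00567). Oat, which converts ornithine toward proline and glutamate, was lower (log2 fold change −0.28, edgeR adjusted p = 0.0162; 0.0553 without KO replicate 1). Beside Chac1, 2 of 7 genes of glutathione turnover fell and none rose in edgeR, also with no adjustment (0 higher at p under 0.05) and in DESeq2 and limma. Ggct, which acts on the γ-glutamyl dipeptides of glutathione breakdown, averaged 19.4 ± 2.16 CPM in KO kidneys and 34.2 ± 2.74 CPM in WT kidneys (SD of 4 libraries each; log2 fold change −0.82, edgeR adjusted p = 0.000335). Gss, glutathione synthetase, had −0.24 (edgeR adjusted p = 0.0270), a call kept only without KO replicate 4 (adjusted p = 0.0584 to 0.0762 in the other fits).

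Of 10 other TORC1 regulators, Sesn3, a sestrin related to Sesn2, was the 1 that rose (log2 fold change 0.49, edgeR adjusted p = 0.00935). Neither Tribbles relative of Trib3 passed, with log2 fold changes of 0.16 for Trib1 and −0.14 for Trib2. Of 12 secreted or other targets 2 rose: the stress cytokine Gdf15, at 59.2 ± 26.0 CPM in KO kidneys and 18.0 ± 2.27 CPM in WT kidneys (SD of 4 libraries each; log2 fold change 1.72, edgeR adjusted p = 0.00348), and the translation repressor Eif4ebp1 (0.86, edgeR adjusted p = 0.00101). DESeq2 called 4 of these 12 higher, and limma 2.

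The unfolded protein response of the endoplasmic reticulum had 1 of 12 genes higher, the chaperone gene Dnajb9 (log2 fold change 0.26, edgeR adjusted p = 0.0358). That call was kept only without WT replicate 2 or KO replicate 3 (adjusted p = 0.0529 to 0.0995 in the other fits). DESeq2 called 2 of these 12 higher, and limma 1. None of 9 genes of the mitochondrial unfolded protein response passed in edgeR, DESeq2 or limma, and 1 was higher and 2 were lower at an unadjusted p under 0.05. Those with the smallest p were Yme1l1 (0.14, unadjusted p = 0.0212, edgeR adjusted p = 0.114) and Clpp (−0.14, unadjusted p = 0.0383, edgeR adjusted p = 0.163). Ddit4, Sesn2 and Trib3 also answer to other programmes, so targets of p53, glucocorticoids and hypoxia were read beside them. Of 8 p53 targets 3 rose: Eda2r (1.70, edgeR adjusted p = 0.0079), Bbc3 (0.74, edgeR adjusted p = 0.0175; 0.0545 without KO replicate 1) and Cdkn1a (1.20, edgeR adjusted p = 0.0374). The Cdkn1a call was kept only without WT replicate 1 or KO replicate 3 or 4 (adjusted p = 0.0659 to 0.106 in the other fits). Its KO libraries, like those of Ddit4, were higher without the leading E (46.6 and 53.5 CPM) than with it (25.4 and 17.6 CPM). The WT libraries of Cdkn1a were split in the same direction, at 21.1 and 17.8 CPM without the leading E and 11.1 and 13.0 CPM with it. Of 8 glucocorticoid targets 3 rose, the metallothionein genes Mt1 (0.73, edgeR adjusted p = 0.00187) and Mt2 (0.55, edgeR adjusted p = 0.0190; 0.0509 without KO replicate 2) and the factor gene Klf9 (0.50, edgeR adjusted p = 0.0387). The Klf9 call was kept only without KO replicate 3 or WT replicate 1 or 2 (adjusted p = 0.0655 to 0.106 in the other fits). Of 8 hypoxia targets none rose in edgeR, DESeq2 or limma (0 at an unadjusted p under 0.05) and 2 fell, Egln3 (−0.72, edgeR adjusted p = 0.00104) and Pdk1 (−0.39, edgeR adjusted p = 0.00996).

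**Figure D4:**
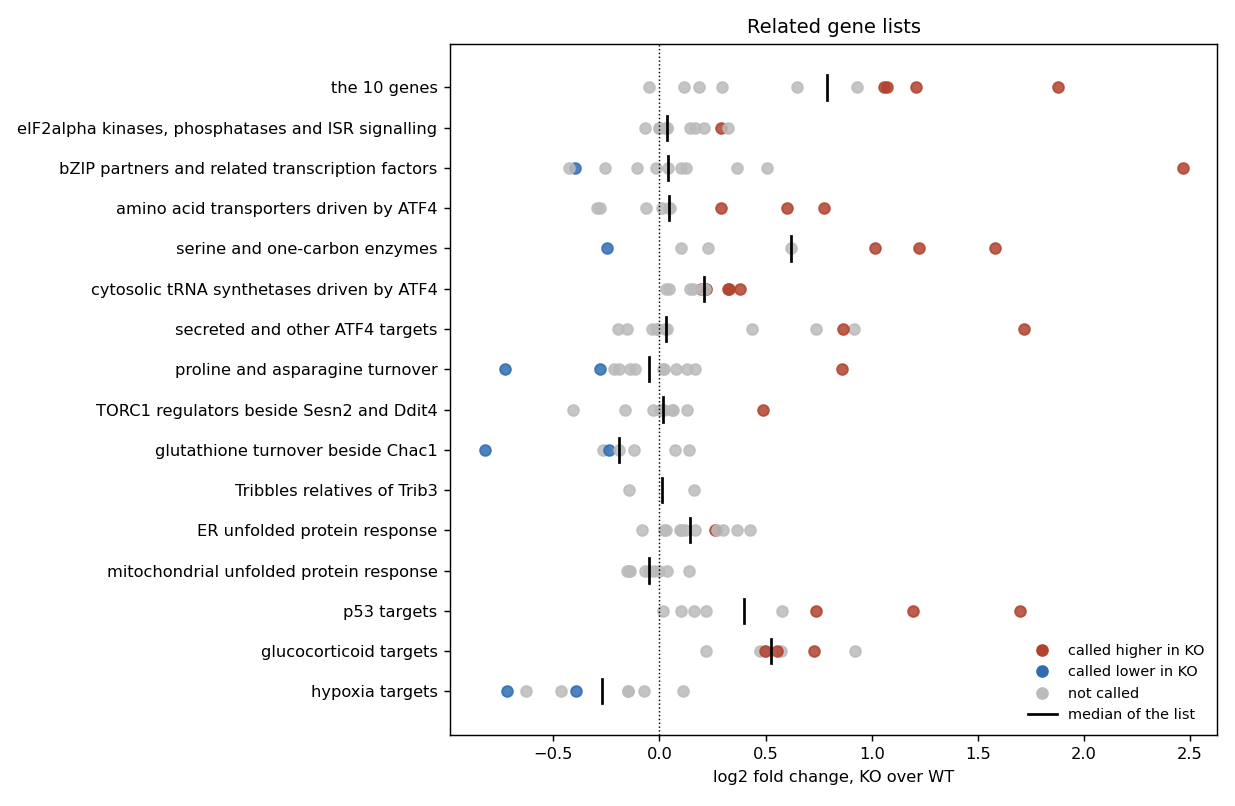
Log2 fold change, KO over WT, of each tested gene in the 10 genes and in 15 related lists, with a bar at the median of each list and colours for the edgeR call at an adjusted p under 0.05. The medians of the 10 genes (0.79) and of serine and one-carbon enzymes (0.62) lie farthest to the right, and that of hypoxia targets (−0.27) farthest to the left.

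In the single libraries of other strains, the 4 genes that rose in KO did not lie together. Of Asns, the 129S2_SvPasCrl library held 10.3 CPM (95% Wilson interval 9.41 to 11.2, counting error only), above the 4.12 to 6.07 CPM of the WT libraries and below all KO libraries. The DBA_2J library held 3.75 CPM (3.27 to 4.31), under the lowest WT library, though its interval reaches past that library. Atf5 had 13.3 CPM in 129S2_SvPasCrl and 11.9 CPM in DBA_2J, both below the WT range of 17.4 to 22.4 CPM. Trib3 had 1.01 CPM in 129S2_SvPasCrl and 1.03 CPM in DBA_2J, beside 1.30 to 2.61 CPM in WT, though both counting intervals (0.766 to 1.32 and 0.794 to 1.34 CPM) reach into that range. Aldh18a1 was low in DBA_2J, at 1.29 CPM (1.02 to 1.63), and within the WT range of 2.29 to 3.22 CPM in 129S2_SvPasCrl, at 3.10 CPM. Chac1 had 0.948 CPM in 129S2_SvPasCrl and 0.718 CPM in DBA_2J, under the lowest WT library at 1.02 CPM, though the 129S2_SvPasCrl interval (0.715 to 1.26 CPM) reaches past it. Ddit3 was above the WT maximum of 18.1 CPM in 129S2_SvPasCrl, at 19.5 CPM (18.4 to 20.8). Atf4, Ddit4, Sesn2 and Pycr1 lay within the WT range in both libraries. In all, 2 of the 10 genes were above and 3 below the WT range in 129S2_SvPasCrl, where 32.4% of all genes tested were above and 32.2% below. In DBA_2J none was above and 5 were below, with 35.1% and 37.4% of all genes. With 1 library a strain there is no test of these counts.

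The genes whose levels moved most like Asns were found from log2 CPM over the 10 libraries, centred on each gene's mean, by the smallest root mean square difference among 13762 genes with 1 CPM or more on average. They were Car13, a cytosolic carbonic anhydrase (0.32 on the log2 scale), Mthfd2 (0.33), Slc25a24, a mitochondrial carrier of adenine nucleotides (0.35), Pappa, a protease that cleaves IGF-binding proteins (0.36), and Pfkp, a phosphofructokinase of glycolysis (0.36). Since KO and WT libraries entered this measure, a difference in the direction of that of Asns follows from the choice; the log2 fold changes, KO over WT, were 1.80, 1.58, 1.81, 1.66 and 1.63 in that order. Pfkp shares 276 exon bases with Pitrm1. By the same measure Aldh18a1 ranked 14, Atf5 32, Trib3 173 and Chac1 214, while Ddit4 ranked 1160, Ddit3 1437, Atf4 3828 and Sesn2 4604. Pycr1 was too low to be ranked.

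Markers of kidney cell types were read beside these results. Those of the proximal tubule, the main segment of kidney cortex (12 of 12 in the tables), were present in all 8 libraries. Their sum ran from 29752 to 35781 CPM in KO kidneys and from 39983 to 41094 CPM in WT, with 4 of 12 called lower. Kap, an androgen-regulated transcript of the proximal tubule, made up most of the sum and of its difference, at 18966 CPM in KO kidneys and 25293 CPM in WT (log2 fold change −0.42, edgeR adjusted p = 0.0295, a call kept only without KO replicate 3 or 4 or WT replicate 4; adjusted p = 0.0565 to 0.0740 in the other fits). Slc7a13 was also called lower, at 275 CPM in KO kidneys and 556 CPM in WT (log2 fold change −1.01, edgeR adjusted p = 0.000902). Its call was kept in all 8 fits that left out 1 library. Slc13a3 (−0.35, edgeR adjusted p = 0.0254) and Lrp2 (−0.42, edgeR adjusted p = 0.0430) were called lower too, but lost the call in 5 and 7 of those fits. At an unadjusted edgeR p under 0.05, 6 of 12 were lower and 1 was higher. Some others did not fall. The phosphate transporter gene Slc34a1 averaged 5605 CPM in KO kidneys and 5607 CPM in WT. Slc5a12, a lactate transporter gene, had 263 to 401 CPM in KO kidneys and 181 to 257 CPM in WT. Its log2 fold change of 0.43 did not pass in edgeR (adjusted p = 0.0715), while DESeq2 called the gene higher. Injured tubule markers (10 of 10 in the tables) summed to 1231 to 2078 CPM in KO kidneys and 987 to 1338 CPM in WT, with 6 of 10 called higher. Among them was Havcr1, the kidney injury molecule, at 44.9 ± 20.8 CPM in KO kidneys and 1.81 ± 0.57 CPM in WT kidneys (SD of 4 libraries each). The log2 fold change of Havcr1 was 4.60 (edgeR adjusted p = 2.6e-05). At an unadjusted edgeR p under 0.05, 6 of 10 were higher and 1 was lower. That 1 was Krt18, at 22.7 CPM in KO kidneys and 28.6 CPM in WT (log2 fold change −0.33, edgeR adjusted p = 0.162). Clu also averaged less in KO kidneys, at 242 CPM against 332 CPM in WT (log2 fold change −0.45, edgeR adjusted p = 0.232). Spp1, the osteopontin gene, made up most of the injured tubule sum in KO kidneys, with 1328 CPM in KO library 4 and 676 to 767 CPM in the other KO libraries. Its call (log2 fold change 0.65, edgeR adjusted p = 0.0491) was lost in 6 of the 8 fits that left out 1 library (adjusted p = 0.0545 to 0.114). KO library 4 had the highest sum and the most Havcr1, at 75.4 CPM, but the lowest KO level of Sox9, at 8.01 CPM, and of Krt8, at 269 CPM. Principal cell markers summed to 312 to 339 CPM in KO kidneys and 462 to 774 CPM in WT, with 6 of 6 lower, and intercalated cell markers to 162 to 186 CPM in KO kidneys and 225 to 262 CPM in WT, with 4 of 6 lower. Thick ascending limb (2 of 6 lower), distal convoluted tubule (2 of 5), endothelial (1 of 6), fibroblast and smooth muscle (2 of 6) and macrophage markers (1 of 6 tested) had calls in that direction only. Some calls were lost when 1 library was left out: the endothelial Kdr and the intercalated cell Aqp6 in 7 of 8 fits, and Slc12a1 and Slc12a3 of the tubule lists in 5 each. The macrophage markers had a median log2 fold change of 0.18, and at an unadjusted edgeR p under 0.05, 1 was higher and 1 lower. Podocyte and red blood cell markers (5 tested each) had no calls in edgeR, DESeq2 or limma, nor at an unadjusted p under 0.05. T and NK cell markers summed to 1.64 to 3.25 CPM in KO kidneys and 1.55 to 3.39 CPM in WT, B cell markers to 1.45 to 2.73 CPM in KO kidneys and 2.35 to 3.16 CPM in WT, and neutrophil markers to 0.558 to 1.42 CPM in KO kidneys and 0.463 to 1.88 CPM in WT, with none called in edgeR, DESeq2 or limma and 1 T and NK cell marker higher at an unadjusted p under 0.05. No marker in the tables was at 0 over the 8 libraries. The part of these shifts in the results for the 10 genes was not tested.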

How the data were processed

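Per the labels' protocols, polyadenylated RNA was sequenced as single-end reads. The submitters' processing notes name STAR, featureCounts, edgeR and mm10 (GRCm38). Reads were counted as primary alignments on exons of UCSC mm10 genes by featureCounts 1.5.2, per the file headers, without strand, and reads in shared bases went to each gene. The authors deposited raw counts per gene with the exon length in bases, and a table of normalized log2 values for 13645 genes (9 of the 10 genes, without Pycr1), which equalled voom's log2 CPM to within 4.97e-14. No row lacked a gene name (0 rows), and no value column was left without a sample (0 columns).

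Counts of the 8 C57BL/6N libraries were filtered with filterByExpr, scaled by TMM and tested for genotype by edgeR's quasi-likelihood F test (edgeR 4.0.16 in R 4.3.3). Benjamini-Hochberg adjustment ran over all 15547 tested genes, with calls under 0.05. The standard error is the log2 fold change divided by the square root of F, and 95% intervals use the fit's degrees of freedom. CPM of the strain libraries, and the KO and WT values set beside them, were scaled over 10 libraries, so they differ slightly from values elsewhere. TPM came from the deposited counts and lengths. The biological coefficient of variation was 12.3%, and the script was tested on simulated data. Alternatives were another scaling, DESeq2 1.42.0, no filter, title form as a term or taken alone, thinning, leaving out each library, and limma 3.58.1 on the deposited log2 values (added after seeing the data).

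The 10 genes, the 15 related lists and the marker lists were chosen with earlier results of these data known. Named genes are the 10, up to 4 called genes per list by smallest p (2 where none was called) and the 5 nearest to Asns. Aars, Spp1, Krt8, Krt18, Clu, Slc34a1 and Slc5a12 were named after their values were seen. Dele1, Castor1, Adgre1, Trbc2, Ighm and Ly6g were not matched to the tables and were not analysed here. Replicate numbers only name the libraries, in accession order.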

Additional observations from a re-analysis of the deposited data

Results flagged for a closer look

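In 1 of 20 groups checked (10 genes in KO and in WT), a single library stood far from the others: Ddit3 in WT replicate 3, at 18.3 CPM, against 13.6 to 14.1 CPM in the other WT libraries. Its gap to the nearest library was 0.882 of the group's range, above Dixon's 95% critical value for 4 samples. Chance gives about 1 such case in 20 groups.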

How the results depend on the processing

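No paired analysis was possible because the replicate numbers follow accession order only. Asns, Atf5, Trib3 and Aldh18a1 were called higher in all 8 fits that left out 1 library, and under RLE scaling, no filter, the title form as a term, thinning, DESeq2 and limma. Among animals with a leading E alone (2 against 2), the calls of Atf5 (log2 fold change 1.14, adjusted p = 0.0761), Aldh18a1 (1.11, 0.0747) and Trib3 (1.16, 0.288) were lost in edgeR. There 1 of the 10 genes was called higher, with 92 genes higher and 51 lower in all; that fit has fewer samples. Among animals without it, Ddit4 (0.85) was called higher and Sesn2 (−0.38) lower, which made 5 genes higher and 1 lower. Sesn2 turned to 0.015 with the title form as a term, 0.41 with the leading E alone, 0.035 in limma, and 0.087 and 0.13 without WT replicate 1 and 2, with a range of −0.25 to 0.13 over the fits with 1 library left out. Pycr1 turned to −0.012 with the leading E alone, and ran from −0.0091 (without WT replicate 2) to 0.37 over the fits with 1 library left out. The cause was not tested. Leaving out 1 library gave 610 (without KO replicate 1) to 916 (without KO replicate 4) genes called higher and 381 (without WT replicate 3) to 722 (without KO replicate 4) lower, and 17 to 26 related genes higher and 5 to 10 lower. Over the 10 genes, 77 of the values with 1 library left out kept direction and side of the threshold and 3 turned; of those under the other settings 70 kept both, 3 lost the call, 2 gained one and 4 turned. Pycr1 has the fewest reads, 13 to 44 per KO or WT library, which limits its precision.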
